A study of Rattus norvegicus with 18 samples.

Results

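The immunoglobulin light chain regions of the rat genome were described gene by gene in bulk RNA sequencing of intestinal tissue. The regions were taken by position on mRatBN7.2: a kappa region on chromosome 4, whose first and last members start at 98324093 and 102735624, and a lambda region on chromosome 11, whose first and last members start at 81518181 and 81947934. A gene was kept where its counts, summed over the 18 libraries, reached 10, which gave 110 of the 30562 genes in the deposited table, 96 in the kappa region and 14 in the lambda region. The members were thus chosen by position and by their summed counts, and those sums are a description that was not tested. In the kappa region 119 genes were annotated and 23 lay under the threshold, 17 of them with no count in any library. The kappa member just inside the threshold, ENSRNOG00000066019, had 13 counts, and the gene just outside, ENSRNOG00000067056, had 8. In the lambda region 15 genes were annotated: ENSRNOG00000053527, with 102 counts, was the lowest member, and ENSRNOG00000050000, with 1 count, was left out.

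The tissue came from wild-type Sprague-Dawley rats, which are an outbred stock, and made up 3 groups with 6 libraries each. Control rats had no treatment, irradiated rats had 1 X-ray exposure of 10 Gy, and the third group had that exposure and afterwards Changbing Formula, and is called formula below. Groups follow the titles and treatment fields of the labels, although the free-text descriptions of all 18 libraries call the rats untreated, against the treatment field of 12. The labels give the tissue as intestine with no segment, and give neither sex, age nor time after exposure. Each library is taken to be a separate animal, which the labels imply without stating it, and p-values measure the spread between these libraries.

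An antibody is built from paired heavy and light chains, and each light chain is either of the kappa or of the lambda type. In a developing B cell a variable (V) gene segment is joined to a joining segment, and the transcript is then spliced to a constant segment, so that each B cell clone and its plasma cells largely transcribe 1 light chain V gene. In the intestine the plasma cells of the lamina propria, which secrete mainly IgA, and the B cells of lymphoid follicles are known sources of such transcripts. In RNA from whole tissue, fewer cells of a type and less RNA per cell cannot be told apart.

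No gene symbol could be matched to the identifiers in the table (0 of 30562), so the genes are given by identifier, and B cell and plasma cell markers could not be read. The names kappa and lambda rest on position, and the heavy chain region set beside them, 22 genes on chromosome 6, rests on position too. A RefSeq table of another assembly, GRCr8, lists 161 V segments on chromosome 4 and 4 on chromosome 11, of any receptor locus, and was used for nothing else. Members were sorted by shape. A gene was called segment-like where it spanned at most 2000 bases with at most 800 exon bases, and V-like where it also had at least 2 exon rows, the leader and body layout of a V gene. Of the kappa members, 82 were segment-like, 54 of them V-like, and 14 were longer models, with 37 members on the forward strand and 59 on the reverse. Of the lambda members, 7 were segment-like, 6 of them V-like, and 7 were longer models, all 14 on the forward strand. No member shared exon bases with another annotated gene. Reads that aligned at several places were not counted, so the counts of near-identical V genes are uncertain.

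Library totals lay between 33598572 and 48398184 counts, and 2 libraries stood apart. Control 2 and irradiated 4 had 9.30% and 5.77% of their counts on mitochondrial genes, against 12.8% to 39.7% in the other 16, and the highest scaling factors of the trimmed mean of M-values (TMM), 1.20 and 1.30. The same libraries held the highest light chain levels, and the part of these features in the results below was not tested.

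From 0.00606% to 0.507% of the counts of a library fell on the light chain regions. Most of those counts did not fall on V-like genes: longer models held 76.6% of the 428897 kappa counts and 77.6% of the 48571 lambda counts. A single model, ENSRNOG00000049829, held 62.4% of the kappa counts. It spans 102404346 to 102688488 on the forward strand of chromosome 4 with 1707 exon bases, and its last exon, 102687969 to 102688488, has 520 bases. In CPM, counts scaled by TMM to the library size, it lay at 57.6 to 1559 in control (median 99.6), at 14.4 to 2298 in irradiated (median 120) and at 13.3 to 277 in formula libraries (median 35.1). The ranges of all 3 groups overlapped, and the highest library of each group was control 2, irradiated 4 and formula 4.

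Another longer model in the kappa region, ENSRNOG00000005576, at 102723712 to 102749355 on the reverse strand, varied less between libraries than the other members with a median above 0. It is a member by position alone, and whether it is an immunoglobulin gene was not tested. It held 8.59% of the kappa counts pooled over libraries, a share that differed widely by library. It had 1582 of the 2135 kappa counts in irradiated 5 and 1572 of 2357 in formula 1, but 2136 of 110845 in control 2. It lay between 29.9 and 107 CPM over all 18 libraries, a highest value 2.40 times the median. Over the 73 kappa members with a median above 0, that multiple had a median of 70.5. It was also low in ENSRNOG00000068892, at 3.42, and ENSRNOG00000062633, at 5.39, whose highest values were 0.230 and 0.121 CPM. The levels of this model were 29.9 to 59.5 CPM in control (median 41.8), 40.8 to 107 in irradiated (median 51.1) and 32.5 to 48.0 in formula libraries (median 41.8).

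Summed over members as CPM per kb of exon, the kappa level was 91.0 to 2874 in control (median 141), 51.6 to 3798 in irradiated (median 207) and 43.6 to 528 in formula libraries (median 59.5). The lambda level, on the same scale, was 5.76 to 386 in control (median 9.36), 2.60 to 444 in irradiated (median 8.16) and 1.44 to 51.1 in formula libraries (median 2.89). The groups overlapped for both regions. The highest kappa level was 31.6 times the lowest in control, 73.6 times in irradiated and 12.1 times in formula libraries, but 1.91 times without control 2, 13.1 times without irradiated 4 and 2.88 times without formula 4. Without control 2 and irradiated 4, the highest kappa level was 174 in control and 673 in irradiated libraries, with medians of 115 and 133, and the highest lambda level was 14.1 and 89.8, with medians of 8.99 and 5.99. Without formula 4, the highest kappa level of the formula libraries was 126 and their median 54.8. Without ENSRNOG00000005576, an alternative chosen after seeing the data, the kappa medians were 120, 174 and 37.0 CPM per kb. The highest kappa level was then 42.4 times the lowest in control, 179 times in irradiated and 22.8 times in formula libraries. In irradiated 5 this model gave 30.7 of the kappa level of 51.6 CPM per kb.

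**Figure D1:**
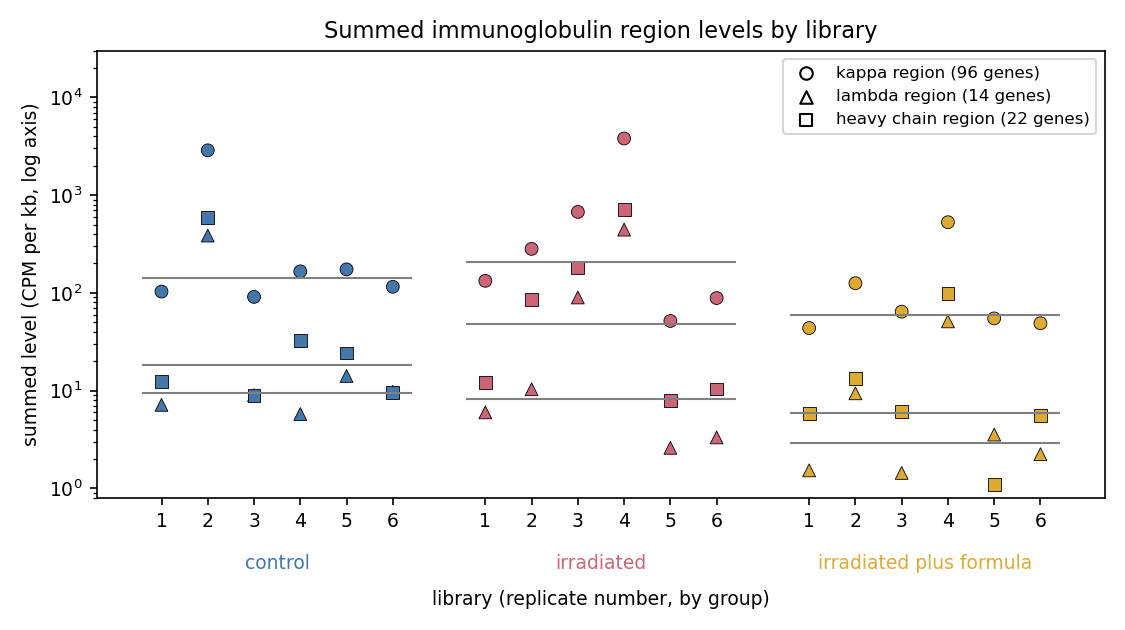
Summed levels in CPM per kb (log axis) of the kappa region (circles), lambda region (triangles) and heavy chain region (squares) in each of the 18 libraries by group; grey lines are group medians. Control 2, irradiated 4 and irradiated plus formula 4 are the highest of their groups for all 3 regions.

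Of the 96 kappa members, 51 had their highest CPM in irradiated 4 and 40 in control 2, and of the 14 lambda members 8 and 6 did. These counts follow in part from the threshold on summed counts, since irradiated 4 and control 2 held 190060 and 110845 kappa counts. Members could pass through them alone: ENSRNOG00000065905 had 87 of its 90 counts in control 2. The share of all genes highest in these libraries was not computed. In kappa level irradiated 3, with 673 CPM per kb, and formula 4, with 528, came next. The heavy chain region ranged from 8.93 to 587 CPM per kb in control (median 18.4), from 7.93 to 718 in irradiated (median 48.5) and from 1.09 to 97.8 in formula libraries (median 5.96). Its highest library in each group was the one highest for kappa and for lambda.

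Each comparison between groups was read from a fit of all 16593 genes that passed a filter on low counts. Of the 110 members 61 passed it, 52 kappa and 9 lambda, and 49 did not. The comparisons share groups of libraries with one another, so their values are given side by side and are not independent of each other.

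Irradiated against control, which asks what the exposure alone changed, gave 0 members with an adjusted p below 0.05 (edgeR quasi-likelihood test, Benjamini-Hochberg over all genes tested), where 0% of all genes were called. The lowest adjusted p of a member was 0.998 (edgeR). DESeq2, which gave a p for 35 of the 61 tested members, also called 0. At an unadjusted p below 0.05, 3 members were higher, 4.92% of those tested beside 0.651% of all genes, and 1 was lower, 1.64% beside 1.28%. The fitted median log2 fold change was 0.53 over the members and 0.01 over all genes, and no member had groups that did not overlap (0.00603% of all genes had). This median turned on single libraries: it was 3.28 without control 2, with 34 of 62 members higher at an unadjusted p below 0.05 beside 8.31% of all genes in that fit, and -1.48 without irradiated 4. Without both, it was 0.96 over 48 members, 3 of them higher at that p beside 5.39% of all genes. ENSRNOG00000049829 had a log2 fold change of 0.58 (SE 1.13, edgeR adjusted p = 0.998). ENSRNOG00000005576, with the lowest p of the members fitted higher, had 0.57 (SE 0.23, edgeR adjusted p = 0.998). The lowest p among members fitted lower was that of ENSRNOG00000070091, a V-like gene at 98686032 to 98686699, with -3.14 (SE 1.46, edgeR adjusted p = 0.998). Control 2 alone carried that value, with 10.4 CPM against at most 0.319 in the other controls and at most 0.657 in irradiated libraries, and without it the log2 fold change was 0.24.

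Formula against irradiated, which asks what the formula changed after exposure, again gave 0 members with an adjusted p below 0.05, where 0% of all genes were called. The lowest adjusted p of a member was 0.770 (edgeR). DESeq2, which gave a p for 35 of the 61 tested members, also called 0. All 61 tested members were fitted lower, with a median log2 fold change of -2.98 beside -0.02 over all genes. At an unadjusted p below 0.05, 15 were lower, 24.6% of those tested beside 4.09% of all genes, and 0 were higher, beside 1.5%. No member had groups that did not overlap, beside 0.187% of all genes. The size of this difference moved with single libraries. Without irradiated 4 the median was -0.73 with 5 of 61 members fitted higher, and 0 members were lower at an unadjusted p below 0.05, beside 2.15% of all genes. Without formula 4, the highest library of its group, the median was -4.81 and 55 of 63 members were lower at that p, beside 6.84% of all genes in that fit. Without control 2 and irradiated 4 together, the median was -0.57 over 48 members, with 0 lower at that p beside 3.48% of all genes.

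Among named members of that comparison, ENSRNOG00000005576 had the lowest p, with a log2 fold change of -0.61 (SE 0.23, edgeR adjusted p = 0.770). ENSRNOG00000049829 had -2.63 (SE 1.20, edgeR adjusted p = 0.770). Both missed the threshold after adjustment.

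Formula against control gave 0 members with an adjusted p below 0.05, where 0.0121% of all genes were called. DESeq2, which gave a p for 35 of the 61 tested members, also called 0. The lowest adjusted p of a member was 0.754 (edgeR). At an unadjusted p below 0.05, 6 members were lower, 9.84% of those tested beside 3.27% of all genes, and 0 were higher, beside 2.45%. Of the 61 tested members 57 were fitted lower, with a median log2 fold change of -2.26 beside -0.07 over all genes, and none had groups that did not overlap, beside 0.832%. Without control 2 the median turned to 0.49, with 45 of 62 members fitted higher and 1 higher at an unadjusted p below 0.05, beside 2.87% of all genes. Without formula 4 it was -4.15, and 44 of 63 members were lower at that p, beside 4.68% of all genes in that fit. Without control 2 and irradiated 4 together, it was 0.62 over 48 members, with 1 higher at that p beside 5.57% of all genes. ENSRNOG00000068056, a model at 100085817 to 100163906 on the reverse strand, had the lowest p, with a log2 fold change of -6.38 (SE 1.93, edgeR adjusted p = 0.754). It lay at 15.6 CPM in control 2, at no more than 0.344 in the other controls and at no more than 0.0909 in formula libraries. Without control 2 its log2 fold change was -2.22. The lowest p among members fitted higher was that of ENSRNOG00000070662, a V-like gene, with 1.24 (SE 1.44, edgeR adjusted p = 0.908), which was 3.71 without control 2 and 0.28 without formula 4.

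Kappa exceeded lambda in every library. The ratio of summed per-kb levels of the segment-like members ran from 5.06 in control 3 to 59.5 in formula 3. The value of formula 3 rests on 225 kappa and 8 lambda counts, and that of control 3 on 352 and 84. All 8 fell on ENSRNOG00000058590. As log2, it was 3.85 ± 1.12 in control, 4.06 ± 0.88 in irradiated and 4.40 ± 1.04 in formula libraries (SD, n = 6), with ranges of 2.34 to 5.73, 2.54 to 4.93 and 2.89 to 5.90. The group means differed by less than 1 SD and the ranges overlapped. The libraries with the highest light chain levels had ratios below the median of 17.01 over all 18: 10.04 in control 2, 13.4 in irradiated 4, 13.1 in formula 4 and 5.80 in irradiated 3. Leaving out control 2 and irradiated 4 gave 3.95 ± 1.22 in control and 4.12 ± 0.97 in irradiated libraries (SD, n = 5).

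As a share of segment-like light chain counts, kappa took 80.7% in control 3 (95% Wilson interval 76.8 to 84.2) and 97.5% in control 4 (96.4 to 98.2), the lowest and highest of all libraries and both untreated. Irradiated 3 took 83.7% (82.8 to 84.5) on 6344 kappa and 1237 lambda counts, while irradiated 4 took 91.3% (91.1 to 91.6) and control 2 took 89.3% (89.0 to 89.6). The distance between irradiated 3 and irradiated 4 was thus larger than counting error. Several other libraries rested on very few lambda counts, such as 7 in irradiated 5, 7 in formula 5 and 8 in formula 3, and their intervals were wide. Intervals and limits here cover counting error only, and they are too narrow, since reads were counted without molecular identifiers and mates of a pair were mostly both counted.

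**Figure D2:**
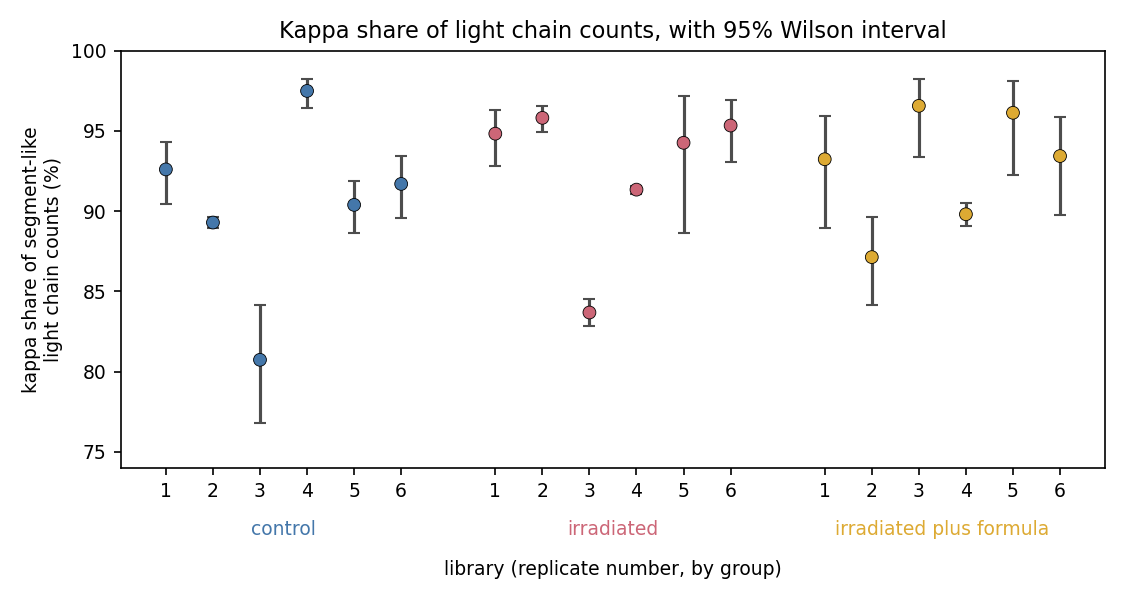
Kappa share of segment-like light chain counts (percent, axis from 74 to 100) in each of the 18 libraries, with 95% Wilson intervals as bars. Control libraries hold both the lowest share, 80.7%, and the highest, 97.5%.

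Kappa V usage was taken as the share of each of the 54 V-like genes in their summed per-kb level within a library. The depth behind it ran from 78 counts in irradiated 5 to 35506 in irradiated 4, and in only 4 of the 54 genes did all 18 libraries hold a count. Usage was spread over many genes: between 3 and 8 V-like genes carried 50% of the usage of a library. Of the V-like genes, 10 led at least 1 library. Leads are among V-like genes only, and single-exon segment-like genes lay above some of them. ENSRNOG00000068055, of that class and chosen after its values were seen, had 4.32 CPM per kb in control 1, against 2.86 in the lead gene. In control 5 it had 6.51 against 5.08, but in control 2 it had 92.1 against 102.

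ENSRNOG00000047571, at 102208044 to 102208785 on the forward strand, had the highest mean usage, 9.33%, and led 4 libraries. Its usage was 11.1% ± 4.41 in control, 7.81% ± 1.79 in irradiated and 9.08% ± 8.26 in formula libraries (SD, n = 6), over a range of 1.05% in formula 2 to 24.9% in formula 6. ENSRNOG00000067894, at 101853468 to 101854416 on the forward strand, had a mean of 8.45%, with 8.06% ± 1.95, 6.25% ± 2.96 and 11.03% ± 8.88 in the same order of groups (SD, n = 6). These genes had counts in every library, and their group means lay within the spread of the libraries.

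ENSRNOG00000065237, at 98778511 to 98779178 on the forward strand, had a mean of 6.05% and led 5 libraries, more than any other V-like gene. It took 21.7% in irradiated 1, 13.3% in irradiated 2 and 14.2% in formula 1, but had no count in irradiated 5 and formula 6. There a count of 0 allows a share of up to 3.85% and 1.79% of V-like counts. These limits are shares of counts and do not bound the per-kb usage, which also depends on exon length. ENSRNOG00000065855, at 98386485 to 98387112 on the forward strand, had a mean of 5.20% and a range of 1.10% to 10.6%. ENSRNOG00000071189, at 100711667 to 100712168 on the reverse strand, had a mean of 4.04% and a range of 0.397% to 10.9%. Shares of these genes thus differed severalfold between libraries of the same group, in part on few counts. ENSRNOG00000065237 had 70 counts in irradiated 1 and 12 in formula 1. In irradiated 3 and irradiated 4, both with over 4000 V-like counts, its shares were close, at 6.11% and 6.33%. Between the same libraries ENSRNOG00000065855 differed, with 1.10% and 3.83%, and so did ENSRNOG00000071189, with 1.30% and 5.80%.

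ENSRNOG00000069405, at 99498045 to 99498650 on the reverse strand, had a mean of 4.62% but took 15.9% in irradiated 3. It took 6.66% in control 2, 2.61% in irradiated 4 and 2.27% in formula 4, the other libraries with over 4000 V-like counts. In formula 4 the leading gene was ENSRNOG00000071163, chosen after its values were seen, with 15.1%, against 1.37% in control 2, 1.03% in irradiated 3 and 2.08% in irradiated 4. Each of these deep libraries thus had a lead gene that differed from those of the others: ENSRNOG00000065237 with 9.08% in control 2 and ENSRNOG00000047571 with 8.21% in irradiated 4 were the remaining ones. The highest share outside the gene with the top mean was 24.8%, of ENSRNOG00000064789 in irradiated 5, on 78 V-like counts.

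**Figure D3:**
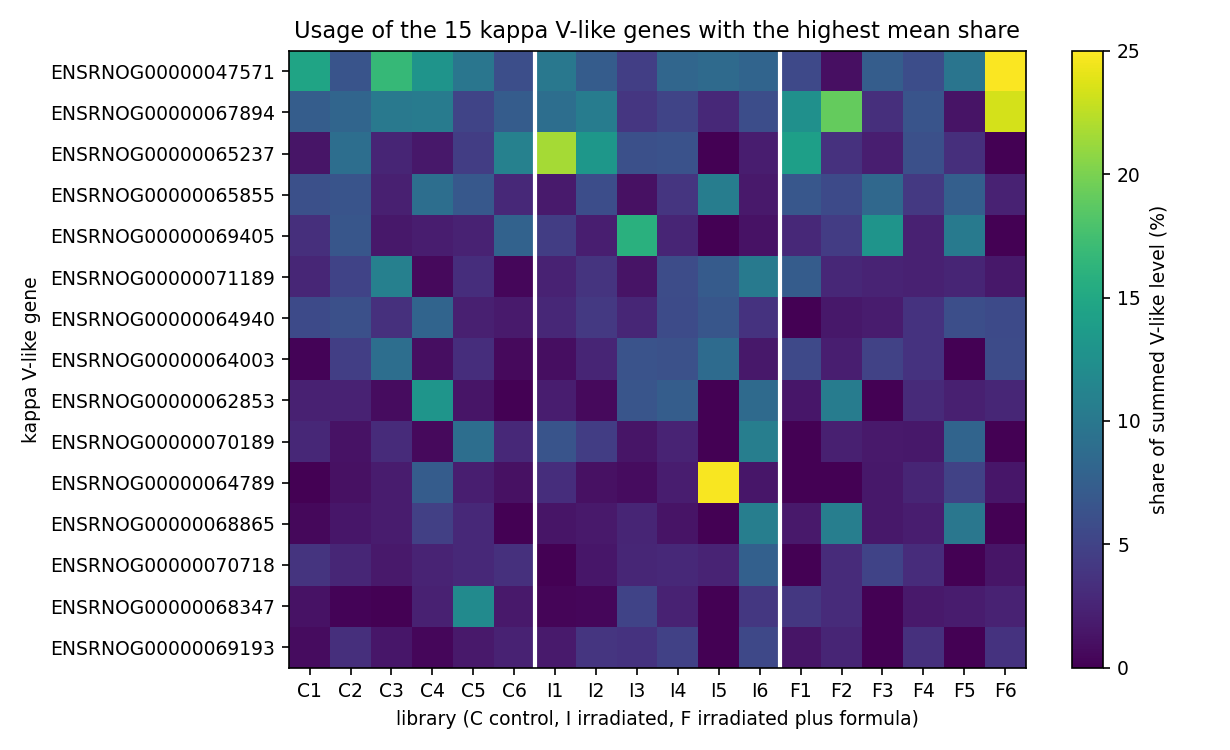
Share of the summed V-like level (percent, colour) for the 15 kappa V-like genes with the highest mean share (rows) in 18 libraries (columns; C control, I irradiated, F irradiated plus formula). The top gene reaches 24.9% in F6, ENSRNOG00000065237 reaches 21.7% in I1, and ENSRNOG00000064789 reaches 24.8% in I5.

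The effective number of V-like genes, the exponential of the Shannon entropy of usage, was 23.5 ± 4.85 in control, 21.5 ± 5.81 in irradiated and 18.02 ± 4.82 in formula libraries (SD, n = 6). It moved with the number of counts: the libraries with under 400 V-like counts lay between 12.1 and 20.95, and the 4 with over 4000 between 24.6 and 29.4. Thinned to 400 counts, which left 5 control, 4 irradiated and 1 formula libraries, it was 23.8 ± 4.13 in control (SD, n = 5), 23.3 ± 3.16 in irradiated (SD, n = 4) and 24.6 in formula 4. With 1 formula library left after thinning to 400 counts, that group has no spread to compare at that depth. Control 4 was low for its depth, 17.1 on 768 counts, and 16.7 after thinning.

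**Figure D4:**
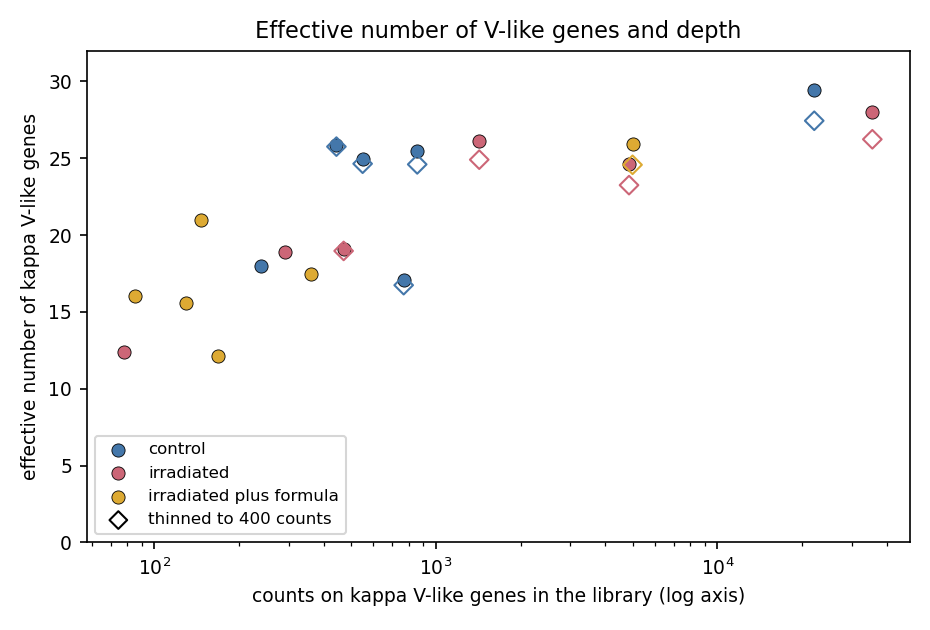
Effective number of kappa V-like genes against the counts on those genes in the library (log axis), filled circles coloured by group, with open diamonds for the 10 libraries thinned to 400 counts. Libraries under 400 counts lie between 12.1 and 20.95, and irradiated 4, with 35506 counts, lies at 27.996.

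Any 2 libraries shared part of their kappa usage, measured as the sum over genes of the smaller of both shares. Over the 6 pairs of libraries with over 4000 V-like counts, this overlap was 59.3% to 71.1% (median 66.3), and control 2 and irradiated 4 shared 68.9%. Over all 153 pairs it was 23.4% to 72.9% (median 49.0). Where both libraries had at least 400 counts, the median was 57.0% over 16 pairs within a group and 58.4% over 29 pairs between groups. Over pairs at any depth, the medians were 50.1% within a group and 49.0% between groups. These are descriptions with no test, since pairs share libraries.

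By position, V-like genes of the whole region were in use. With the region divided into 4 equal stretches by position, the first, with 21 V-like genes, took a median of 35.8% of usage over the 18 libraries (16.2 to 49.8), and the last, with 10 genes, took 23.3% (14.9 to 53.4). The second and the third took medians of 15.1% and 19.1%. Genes on the forward strand, 23 of the 54, took between 33.7% of usage in irradiated 5 and 66.5% in formula 2.

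**Figure D5:**
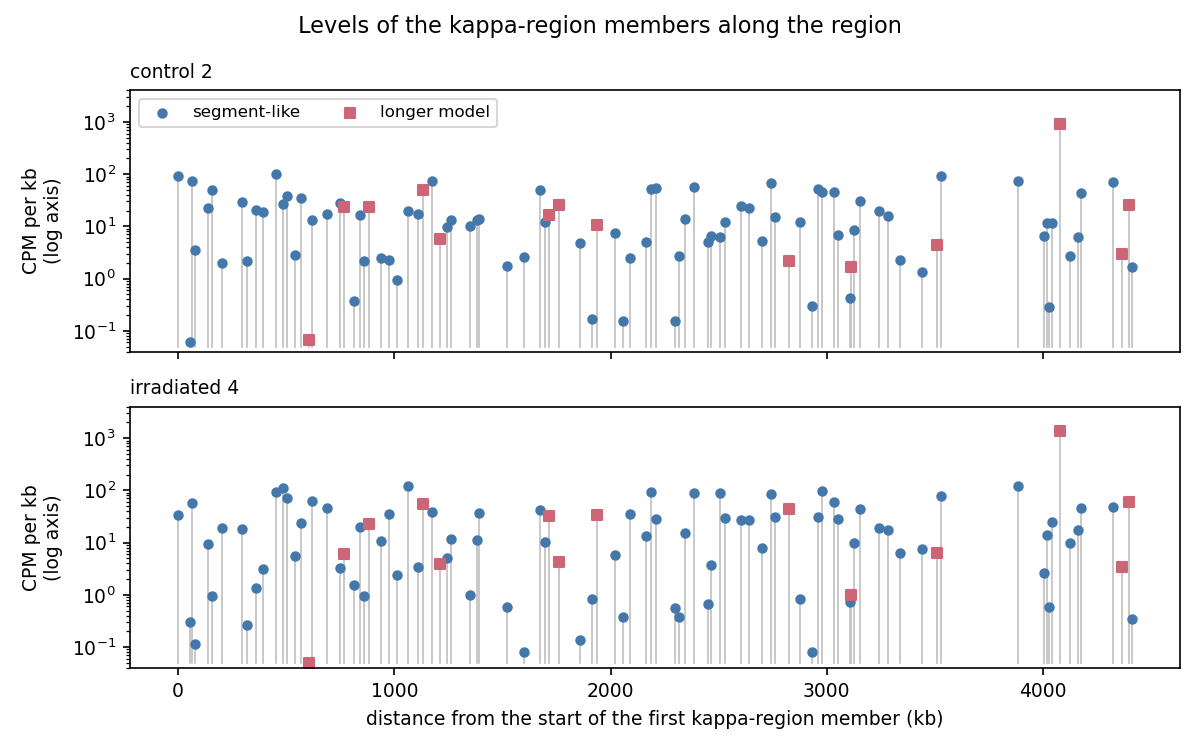
Level in CPM per kb (log axis) of each kappa-region member against its distance from the start of the first member (kb) in control 2 (upper) and irradiated 4 (lower); circles are segment-like genes, squares longer models, and values under 0.05 are drawn at 0.05. Both libraries show levels along the whole region, with ENSRNOG00000049829 highest in each.

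Lambda usage rested on 6 V-like genes and on 5 to 4497 counts in a library. ENSRNOG00000058590, at 81947934 to 81949822 on chromosome 11, had a mean usage of 34.8% and led 7 libraries, and ENSRNOG00000042193, at 81518181 to 81518675, had 27.4% and led 5. ENSRNOG00000058590 is the last lambda member by position, with 758 exon bases over a span of 1889. The other V-like lambda genes have 285 to 459 exon bases. It is V-like by shape alone, and whether it holds a V segment was not tested. Lambda usage, the lambda effective numbers and the kappa to lambda ratio all include it. ENSRNOG00000057165, at 81594647 to 81595950, had 15.1%, and ENSRNOG00000064806, at 81680936 to 81681460, had 10.9%. Each of the 6 genes led at least 1 library. ENSRNOG00000069898 led control 1 with 29.2%, and ENSRNOG00000070163 led formula 1 with 34.1% on 14 counts.

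In the libraries with more lambda counts the order of the genes differed. ENSRNOG00000042193 took 66.6% in irradiated 3, on 1237 counts, against 29.5% in irradiated 4, 11.7% in control 2 and 19.4% in formula 4. ENSRNOG00000058590 took 56.3% in formula 4, on 711 counts, and 18.7% in irradiated 3. ENSRNOG00000057165 took 31.7% in control 2 and 61.6% in control 3, the latter on 84 counts. In formula 3 and formula 6 all lambda V-like counts, 8 and 17, fell on ENSRNOG00000058590, and a count of 0 there allows any other gene up to 37.5% and 17.6% of them.

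The effective number of lambda V-like genes was 3.77 ± 1.07 in control, 2.87 ± 0.96 in irradiated and 2.75 ± 1.38 in formula libraries (SD, n = 6). Group ranges overlapped, from 2.35 to 4.81 in control, 2.0 to 4.70 in irradiated and 1.00 to 3.88 in formula libraries. Differences in this number between groups were not tested. None of the tested lambda V-like genes passed the test in any comparison: for formula against irradiated the log2 fold change was -3.55 for ENSRNOG00000042193 (SE 1.66, edgeR adjusted p = 0.770) and -2.03 for ENSRNOG00000058590 (SE 1.67, edgeR adjusted p = 0.787).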

How the data were processed

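Raw gene counts were deposited. Per the file headers, the authors made them by running featureCounts 2.1.1 against mRatBN7.2 and Ensembl annotation release 110, requiring both ends aligned and leaving out chimeric pairs, with no option for read pairs, strand, multiple alignments or overlaps. The submitters' processing notes also name STAR, fastp, FastQC and SAMtools, whose versions are not given in the sources used here. Between 66.9% and 74.6% of counts from 1 to below 40 were even. 0 columns of sample values were left unused, and 0 pairs of columns were identical.

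Tests used edgeR 4.0.16 (R 4.3.3), quasi-likelihood, on these counts (filterByExpr, TMM, no covariates, 18 libraries in 1 model, Benjamini-Hochberg over all genes kept, threshold 0.05), after a check on simulated counts. Standard errors were the absolute log2 fold change over the square root of F. Levels are TMM-scaled CPM, per kb of exon where genes were summed or compared. Wilson intervals came from SciPy 1.17.1, and a count of 0 was given a limit of 3 counts. Sums, ratios and usage have no test.

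Named genes were the 6 kappa and 4 lambda V-like genes with the highest mean usage, any reaching 25% of usage, the highest other member of each region per kb, and, for each comparison, the members fitted higher and lower with the lowest p. The members, lists and rules were chosen with earlier results of these data known. Lists of B cell, plasma cell and other immunoglobulin pathway genes needed symbols and could not be read. Alternatives were DESeq2 1.42.0, other scalings and filters, a replicate block, other member classes, thinned counts, and libraries left out.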

Additional observations from a re-analysis of the deposited data

Results flagged for a closer look

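In each group of 6, the highest or lowest library was set against the others by its gap to the nearest library as a share of the range and compared with Dixon's critical value. For normally distributed values, chance passes this in about 1 in 20 groups, so about 1.35 of the 27 groups examined, and 10 passed. The levels were taken without a log and were strongly skewed, so that rate need not hold here. The 10 therefore cannot be read against it. The summed kappa level of control 2 was 2874 CPM per kb with the next control at 174, that of irradiated 4 was 3798 with the next at 673, and that of formula 4 was 528 with the next at 126. The summed lambda level was 386 CPM per kb in control 2 with the next at 14.1, 444 in irradiated 4 with the next at 89.8, and 51.1 in formula 4 with the next at 9.38. For the heavy chain region the level was 587 CPM per kb in control 2, 718 in irradiated 4 and 97.8 in formula 4. The effective number of lambda V-like genes was 4.70 in irradiated 4, on 4497 counts, with the next irradiated library, irradiated 6, at 2.95 on 22 counts. Control 5 reached 4.81 on 125 counts. The first 9 of the 10 flagged values describe the same 3 libraries and are not independent of each other.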

How the results depend on the processing

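The count of members with an adjusted p below 0.05 was 0 in each of the 72 alternative fits, 24 for each comparison. The counts at an unadjusted p below 0.05 ranged with 1 library left out from 2 to 34 for irradiated against control, from 0 to 55 for formula against irradiated and from 1 to 44 for formula against control. These fits tested 61 to 73 members, and the percentages beside the counts below are of all genes in the same fits. For irradiated against control, with 4 such members, leaving out control 2 gave 34, all higher, beside 8.31% higher. Leaving out control 6 gave 1 higher and 1 lower, beside 0.428% and 0.624%. Leaving out irradiated 4 gave 2, both lower, beside 1.68%. For formula against irradiated, with 15, all lower, it was 5 or 6 without formula 1, 2, 3, 5 or 6, beside 2.44% to 3.78%. It was 55 without formula 4, beside 6.84%, and 0 without irradiated 4, beside 2.15%. Without irradiated 1, 5 or 6 or control 2 it was 23 to 30, beside 3.66% to 6.78%. For formula against control, with 6, all lower, it was 1 without control 2, which was higher, beside 2.87% higher. It was 44 lower without formula 4, beside 4.68%. Without any other control it was 11 to 16 lower, beside 2.28% to 3.76%. Without irradiated 1, 4, 5 or 6 it was 11 to 14 lower, beside 2.63% to 4.94%. DESeq2 gave a p for 35 of the 61 tested members. In the same order of comparisons, 3 were higher, 17 lower and 6 lower at an unadjusted p below 0.05 (DESeq2). The shares of all genes beside them were 1.32%, 6.16% and 3.45%. With no filter, 110 members were tested and 8, 26 and 23 had an unadjusted p below 0.05. Of the 8, 3 were higher and 5 lower, beside 1.06% and 1.65% of all genes. The 26 and 23 were all lower, beside 4.27% and 3.44%. With the replicate number as a block, 0 members were called in each comparison. Under that block 1 member higher, 22 lower and 17 lower had an unadjusted p below 0.05, beside 0.404%, 2.34% and 2.39% of all genes, and the median log2 fold changes were -0.07, -2.56 and -2.55. Replicate numbers did not pair the libraries: 5 of 18 same-numbered pairs had a correlation of deviations over 0.1 (range -0.51 to 0.61), and for 4 of 18 libraries the best correlation was with their own number. The log2 fold change of ENSRNOG00000070091 in irradiated against control was 0.24 without control 2 (edgeR adjusted p = 0.944), and ranged from -3.98 to 0.24 with 1 library left out; the cause was not tested. Thinned to the lowest library, on 78 kappa and 5 lambda counts, the mean effective number in control was 18.6 for kappa and 2.54 for lambda. Values of the other groups at that depth are not given here. With single-exon genes included, on more genes, the kappa effective number was 35.8 in control, 31.7 in irradiated and 27.4 in formula libraries. With 1 library left out, the median kappa level was 115 to 166 CPM per kb in control, 133 to 282 in irradiated and 54.8 to 64.2 in formula libraries, and the mean log2 ratio of kappa to lambda was 3.47 to 4.15, 3.89 to 4.37 and 4.10 to 4.70. The ratio without the highest gene of each region could not be given for formula libraries, where lambda was then 0 in some. Lambda usage is limited by its few counts.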

Other observations

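Some values belong to no comparison between groups. Control 2 and irradiated 4, the libraries with the most light chain counts, came from different groups and were set side by side gene by gene, a choice made after their values were seen. Over the 64 members with at least 500 counts in all, 42 were higher in irradiated 4 and 22 in control 2, with a median ratio of 1.19. Single genes departed far from that median. ENSRNOG00000067233 had 15.99 CPM in control 2 and 0.310 in irradiated 4, and ENSRNOG00000070091 had 10.4 and 0.657. In the other direction ENSRNOG00000065564 had 1.499 CPM in control 2 and 30.3 in irradiated 4, with 21.1 in irradiated 3, and ENSRNOG00000070109 had 2.36 and 34.5, with 0.638 in irradiated 3.

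Of the longer lambda models, ENSRNOG00000064589, at 81906179 to 81911931, and ENSRNOG00000070540, at 81944458 to 81946438, held 23.4% and 27.1% of the lambda counts. Their per-kb ratio was 2.21 in control 2, 1.92 in irradiated 4 and 2.12 in control 1, but 0.631 in irradiated 3 and 0.647 in formula 4. Across all 18 libraries it ran from 0.135 in formula 2, on 12 and 164 counts, to 2.21. These are values of single libraries and were not tested.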
